A study of Rattus norvegicus with 6 samples.

Results

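Trib3, Ddit3 and Atf3 are 3 genes of the integrated stress response, followed here in neonatal rat ventricular cardiomyocytes treated with erastin. They are 3 of the 34052 features of the deposited table and were taken by identifier, ENSRNOG00000007319 for Trib3, ENSRNOG00000006789 for Ddit3 and ENSRNOG00000003745 for Atf3. The cells are cultured heart muscle cells that were taken from the ventricles of newborn rats. The 3 erastin libraries come from cells given 10 µM erastin for 24 h, and the 3 control libraries from cells without it. The sources used here do not give the rats' strain or sex, the vehicle of the control cells or the purity of the culture. Whether the replicates were separate isolations is not stated in the labels, so their spread may be technical. Erastin stops cells from importing cystine through the antiporter that exports glutamate, and so sets off ferroptosis, a cell death that needs iron and comes with lipid peroxidation. The 3 genes were selected on their FPKM in erastin against control libraries, which differed in the same direction.

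The integrated stress response is a signalling route that stress kinases start by phosphorylating the translation factor eIF2alpha. Most protein synthesis then slows, while the mRNA of the transcription factor ATF4 is translated more, and ATF4 switches on genes for amino acid supply, redox defence and, under lasting stress, cell death. Ddit3 encodes CHOP, a C/EBP family transcription factor downstream of ATF4. Atf3 encodes a stress-inducible member of the ATF/CREB family. Trib3 encodes a tribbles pseudokinase, a target of ATF4 and CHOP that also restrains ATF4 and binds AKT. Cystine shortage is among the known triggers of this response.

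The 250 bases before the gene start are shown for Trib3 and Ddit3, the members found among the RefSeq promoter sequences, because the levels of both genes differed between the groups in the same direction. They are from build GRCr8, read 5′ to 3′ on the strand of the gene, and end at the base before the start. The Trib3 stretch is chr3:161275534-161275783 on the minus strand and the Ddit3 stretch is chr7:65001445-65001694 on the plus strand. No sequence is shown for Atf3. Capitals mark matches, on either strand, to the motifs described after them.
Trib3: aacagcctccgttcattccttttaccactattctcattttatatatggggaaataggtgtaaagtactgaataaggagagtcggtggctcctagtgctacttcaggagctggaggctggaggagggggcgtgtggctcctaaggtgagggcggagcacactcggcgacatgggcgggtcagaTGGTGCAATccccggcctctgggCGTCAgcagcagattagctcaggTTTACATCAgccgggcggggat
Ddit3: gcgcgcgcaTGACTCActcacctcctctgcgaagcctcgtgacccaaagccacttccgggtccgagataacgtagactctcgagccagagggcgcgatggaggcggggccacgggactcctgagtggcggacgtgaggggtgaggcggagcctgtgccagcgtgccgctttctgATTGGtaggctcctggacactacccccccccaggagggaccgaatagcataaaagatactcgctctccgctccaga

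The motifs searched were the C/EBP-ATF composite element TGATGNAAN, to which ATF4 binds with a C/EBP partner, the same element with the third letter open, TGNTGNAAN, the CRE half-site TGACG, the AP-1 element TGANTCA, the CCAAT box CCAAT and the core of the antioxidant response element TGACNNNGC. The Trib3 stretch held TGATGTAAA, a composite element, on the opposite strand at 22 to 14 bases before the start. Of 33469 promoters, 3.38% held this element in the same 250 bases. Further upstream, at 68 to 60 bases, Trib3 held TGGTGCAAT, which meets the element only with the third letter open, and 12.6% of promoters held at least 1 match to that wider form. The wider form includes every match to the strict one. All motifs were chosen after the sequences had been seen, so the shares of promoters do not give the odds of a match by chance. A CRE half-site lay on the opposite strand at 45 to 41 bases before the Trib3 start, a match that 18.2% of promoters had.

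The Ddit3 stretch held neither form of the composite element, and bases further upstream were not searched. It held an AP-1 element, TGACTCA, at 241 to 235 bases before the start, which reads as a match on both strands and was found in 6.34% of promoters. A CCAAT box lay on the opposite strand at 76 to 72 bases, as in 34.0% of promoters. The antioxidant response element core, present in 10.1% of promoters, was in neither stretch. GC content was 63.6% before Ddit3 and 55.2% before Trib3, against a median of 51.2% over all promoters. These matches describe the letters only, and binding was not measured.

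**Figure D1:**
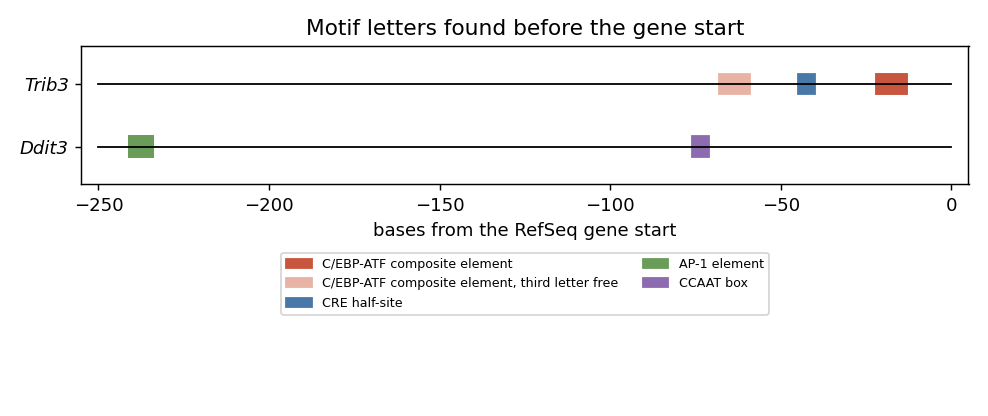
Positions of motif matches (coloured boxes) in the 250 bases before the RefSeq gene start of Trib3 and Ddit3, with the distance from the start in bases on the x axis. The 3 Trib3 matches lie within 68 bases of the start, and the Ddit3 matches lie at 241 and at 76 bases.

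Trib3 was the member with the largest difference between the groups. Its level was 7.27, 6.34 and 5.88 FPKM in control replicates 1, 2 and 3, against 152, 157 and 168 FPKM after erastin, again by replicate number. FPKM are fragments per length of the gene and per total of the library. The word reads stands here for the units counted for FPKM, by definition fragments and not single ends. The lowest erastin library was 21.0 times the highest control library, so the groups stood far apart, and their means of 6.50 ± 0.709 and 159 ± 7.74 FPKM (SD, n = 3) differed 24.5-fold. On the log2(FPKM + 1) scale the difference was 4.42 (limma SE 0.071), a value that understates the change of a gene this low in control cells. The control level rested on 131 to 183 reads per library and the erastin level on 3290 to 3646. By mean FPKM, Trib3 went from rank 8713 of all features in control to rank 540 in erastin libraries.

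Ddit3 was the most abundant member in control cells. The 3 control libraries, in order of replicate number, were at 40.1, 40.6 and 39.3 FPKM, and the 3 erastin libraries at 168, 167 and 174 FPKM. The control libraries lay close together, the erastin libraries likewise, and the groups did not overlap. Their means were 40.0 ± 0.647 and 170 ± 4.0 FPKM (SD, n = 3), a 4.25-fold difference, or 2.06 (SE 0.033) on the log2(FPKM + 1) scale. Between 393 and 526 reads per control library and 1629 to 1743 per erastin library stood behind these levels. The mRNA of the pro-death factor CHOP was thus well above detection without erastin, at rank 2416, and reached rank 492 with it.

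Atf3 had a low control level like that of Trib3 and a fold like that of Ddit3. In the same order, its level was 6.96, 7.54 and 6.81 FPKM without erastin and 34.6, 34.8 and 33.8 FPKM with it. All erastin libraries were above all control libraries, with means of 34.4 ± 0.557 and 7.10 ± 0.383 FPKM (SD, n = 3). The difference was 4.85-fold, or 2.13 (SE 0.051) on the log2(FPKM + 1) scale. Each control library held 182 to 261 Atf3 reads and each erastin library 873 to 972. Atf3 went from rank 8456 to rank 3176 and was the least abundant member in erastin cells.

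**Figure D2:**
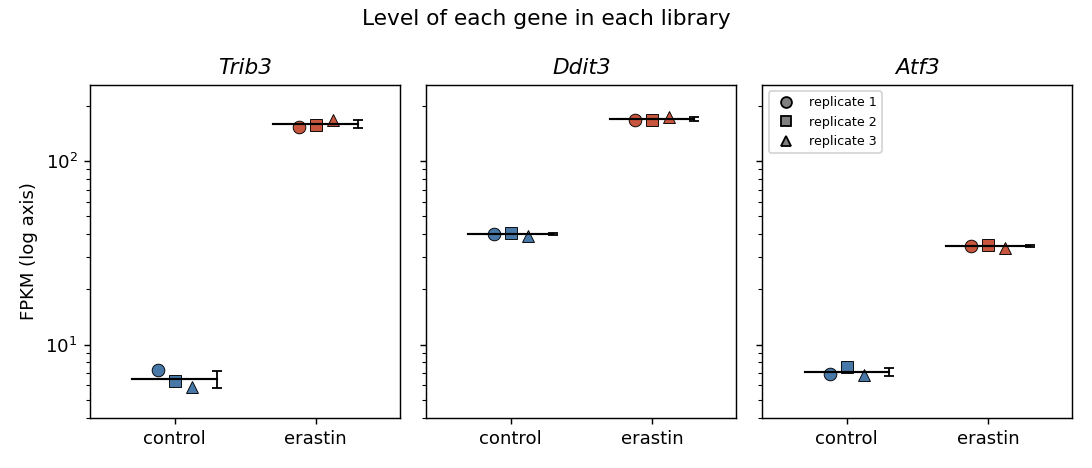
FPKM of Trib3, Ddit3 and Atf3 in each library on a log axis, with symbols for replicates 1 to 3, horizontal lines for the group means and bars for 1 SD (n = 3). Each gene is higher in all 3 erastin libraries than in any control library, and Trib3 goes from 6.50 to 159 FPKM on average.

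Since the members were chosen by these values, their differences are given as a description with no test. All 3 were higher in every erastin library than in any control library, which held for 45.7% of 13576 tested features, those that reached 1 FPKM in 3 or more libraries. The 3 members passed this filter in every library. All 3 were also at least 4-fold higher by mean FPKM, as were 1.67% of tested features. This cut lies just below the smallest member fold, 4.25 for Ddit3, so the share describes the members and tests nothing. By fold of mean FPKM, Trib3 ranked 26, Atf3 158 and Ddit3 209 among the tested features. On the log2(FPKM + 1) scale, which shrinks the differences of features with low levels, the ranks in that order were 5, 78 and 92. In bulk RNA, more RNA per cell and a larger share of cells with the RNA cannot be told apart.

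**Figure D3:**
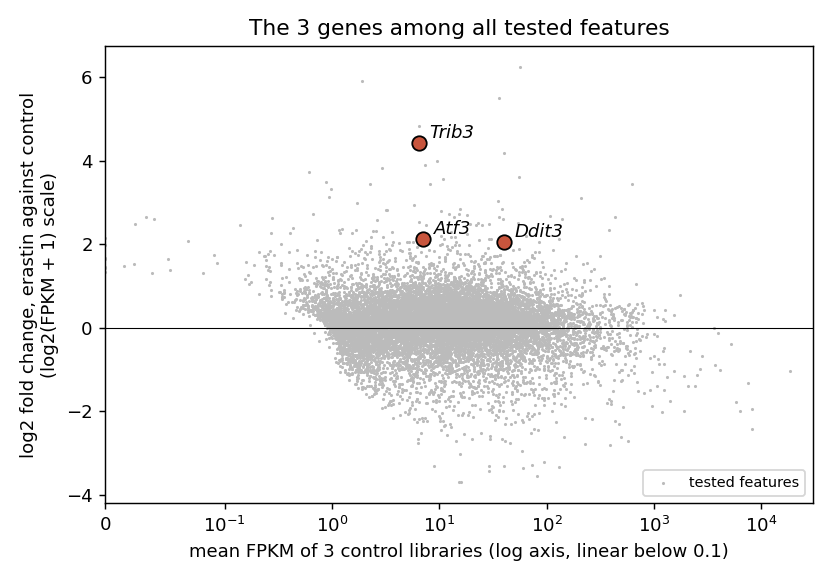
Log2 fold change of erastin against control on the log2(FPKM + 1) scale (y axis) against the mean FPKM of the 3 control libraries (x axis, log, linear below 0.1), with 1 grey point per tested feature. Trib3, at 4.42, stands above nearly all features, while Ddit3 and Atf3 have similar differences of 2.06 and 2.13 at different control levels.

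By FPKM, Trib3 and Atf3 had no settled order in control cells but had one in erastin cells. In control cells Ddit3 was highest in 3 of 3 libraries, and Trib3 and Atf3 overlapped, with Trib3 the higher of both in 1 of 3 libraries. In erastin cells Trib3 was above Atf3 in 3 of 3 libraries, without overlap. Ddit3 and Trib3 overlapped there, from 167 to 174 FPKM against 152 to 168, although Ddit3 was above Trib3 within each of the 3 libraries. FPKM are per length, and in reads the order in erastin libraries was different. Counted lengths were 1935 bases for Trib3, 869 for Ddit3 and 2322 for Atf3. Trib3 took 0.0308% of the reads of an erastin library on average, Ddit3 0.0148% and Atf3 0.00799%. In a control library the mean shares were 0.00126% for Trib3, 0.00348% for Ddit3 and 0.00165% for Atf3.

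Within a library, any factor that scales all features alike divides out of the ratio of 2 members. The ratio of Trib3 to Ddit3 in FPKM was 0.181, 0.156 and 0.150 in the control libraries and 0.907, 0.939 and 0.961 in the erastin libraries, in order of replicate number. It was thus 5.76 times as high in erastin libraries, from a mean of 0.162 ± 0.0168 to 0.936 ± 0.0271 (SD, n = 3). The proportion of Atf3 to Ddit3 differed far less. Their ratio was 0.174, 0.186 and 0.173 in control and 0.206, 0.209 and 0.194 in erastin libraries, higher by a factor of 1.14. The groups did not overlap, but the highest control ratio, 0.186, and the lowest erastin ratio, 0.194, lay close together. In control libraries, counting reads alone gives an error of 7.00% for Atf3 and 4.81% for Ddit3. Over all pairs of an erastin and a control library, the FPKM fold was 4.11 to 4.44 for Ddit3 and 4.48 to 5.11 for Atf3. For Trib3 it was 21.0 to 28.5, far above both. The Ddit3 and Atf3 ranges did not overlap, but the pairs share libraries and the gap is small beside the counting error. Whether the folds of Ddit3 and Atf3 differ was not tested.

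Added together, the 3 genes were at 53.6 ± 1.39 FPKM in control and 363 ± 11.0 FPKM in erastin cells (SD, n = 3). Trib3 made up 12.1 ± 1.12% of this sum without and 43.7 ± 0.835% with erastin (SD, n = 3). Ddit3 made up 74.6 ± 0.898% and 46.8 ± 0.491%, and Atf3 13.2 ± 0.530% and 9.49 ± 0.428% (SD, n = 3). The shares of Ddit3 and Atf3 were lower although the levels of both genes were higher, because the level of the pseudokinase gene differed by more than those of the 2 transcription factor genes.

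**Figure D4:**
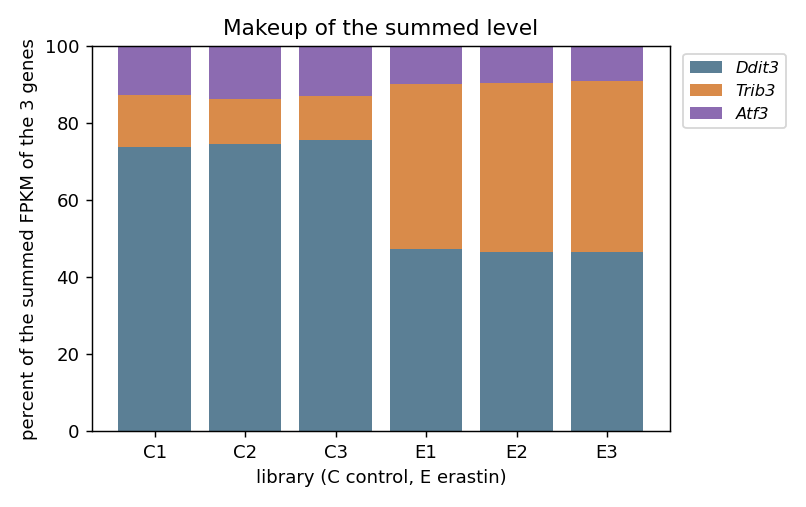
Share of each gene in the summed FPKM of Ddit3, Trib3 and Atf3 (y axis, percent) in control (C1 to C3) and erastin (E1 to E3) libraries. The Trib3 share is 11.3% to 13.4% in control and 42.9% to 44.6% in erastin libraries.

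Replicates of a group agreed to within a few percent for Ddit3 and Atf3 and less closely for Trib3. The coefficient of variation (SD over mean) of Ddit3 was 1.62% in control and 2.36% in erastin libraries, where counting its reads alone gives 4.81% and 2.44%. For Atf3 it was 5.39% and 1.62%, against 7.00% and 3.31% from counting. For both genes the coefficient was below the counting value in each group, but 3 libraries measure it only roughly. Trib3 varied by 10.9% in control libraries, against 8.01% from counting, and by 4.87% in erastin libraries, against 1.69%. Its chi-square per degree of freedom, near 1 where only counting noise acts, was 1.74 in control and 8.15 in erastin libraries. The latter was above that of 95.2% of tested features, but at a given relative spread this value grows with read number. A tested feature had a median of 305 reads in a library. By replicate SD on the log2(FPKM + 1) scale, 65.3% of tested features varied less than Trib3. Erastin replicate 3 had the highest Trib3 and the highest Ddit3 of the 3 erastin libraries, 5.40% and 2.69% above their group means. Atf3 was at -1.84% from its mean there, inside its counting noise of 3.38%. Reads carry no molecular identifiers, so these figures cover counting error only.

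**Figure D5:**
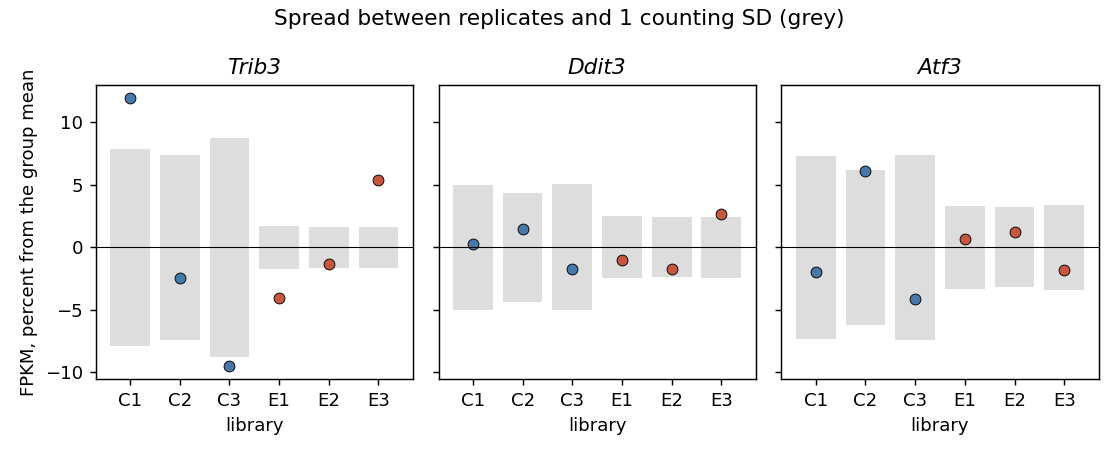
FPKM of each gene in each library as the percent difference from its group mean (y axis), for control (C1 to C3) and erastin (E1 to E3) libraries, with grey bars for 1 SD of counting noise on either side. Trib3 lies outside the grey bars in control replicates 1 (11.9%) and 3 (-9.48%) and erastin replicates 1 (-4.05%) and 3 (5.40%), and Ddit3 in erastin replicate 3 (2.69%), while all Atf3 points lie inside them.

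Features with a similar pattern were sought by the root mean square difference over the 6 libraries of log2(FPKM + 1) after subtracting the control mean, a distance set mostly by the size of the change. No tested feature came within 0.2 of Trib3. The nearest, ENSRNOG00000025764 at 0.213, lay just outside this limit. It went from 39.8 ± 4.08 to 739 ± 67.0 FPKM (SD, n = 3), an 18.6-fold difference. The second nearest, at 0.300, went from 6.53 ± 0.929 to 213 ± 5.90 FPKM (SD, n = 3), a 32.6-fold difference. The third nearest was at 0.315. Ddit3 had 64 features within 0.2 and Atf3 had 53. The nearest to Ddit3, ENSRNOG00000010833 at 0.023, was also close in level, at 39.6 ± 1.48 FPKM without and 168 ± 2.20 FPKM with erastin (SD, n = 3). The distance between Ddit3 and Atf3 was 0.0657, and 11 features lay nearer to Ddit3 and 8 nearer to Atf3. Trib3 was at 1.67 from Ddit3 and 1.62 from Atf3. These distances depend on the scale, which shrinks the difference of Atf3 more than that of Ddit3. With 0.1 FPKM added in place of 1, the log2 differences were 2.08 for Ddit3 and 2.26 for Atf3.

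Over the whole table, 66.4% of tested features passed limma at a Benjamini-Hochberg adjusted p under 0.05, 42.3% higher and 24.1% lower in erastin. Of the changed features 63.7% were higher as deposited and 49.8% after centring each library on its median log ratio. The median log2 fold change of tested features was 0.13 as deposited, and relative to this shift, with centred libraries, the differences were 4.29 for Trib3, 1.93 for Ddit3 and 2.00 for Atf3. The steps of the FPKM gave library totals of 11506854 to 14914827 reads for control and 11126968 to 12017459 for erastin. The table carries no gene symbols and 0 of its identifiers matched the reference table, so Atf4, its other targets and the markers of cardiomyocytes and other heart cells were not analysed here. The symbols of the 3 members were given with their identifiers when they were chosen.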

How the data were processed

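RNA of 6 libraries (3 control, 3 erastin) was grouped by sample title. Paired ends of strand-marked poly(A) libraries were sequenced, per the labels' protocols. The authors deposited 1 table of FPKM. The submitters' processing notes name HISAT2 2.0.5 and DESeq2 but not what each did. The read counter, build and annotation were not given in the sources used here. FPKM are relative to the library total, so a change in abundant features shifts all others.

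Reads, lengths and library totals were recovered from the FPKM steps. At whole lengths up to 40000 bases, all values of 100% of tested features were whole reads within 0.01, or up to 0.05 for large counts. Limma 3.58.1 (R 4.3.3) was run on log2(FPKM + 1) with a trended, robust prior over features that reached 1 FPKM in 3 or more libraries, for the background and standard errors. Both scripts were tested on simulated data. Python 3.11.15 was used otherwise.

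The members, the gene lists and the alternatives were chosen with earlier results of these data known, and the motifs after the promoter sequences had been seen. The genes to be named were the members, the stress response lists, not analysed because no symbols matched, and the 3 features nearest to each member, of which 2 are printed by identifier. Alternatives were a replicate block, each library left out, a pseudocount of 0.1, centring, voom on recovered reads, no filter and a constant prior.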

Additional observations from a re-analysis of the deposited data

How the results depend on the processing

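The log2 fold changes of 4.42 for Trib3, 2.06 for Ddit3 and 2.13 for Atf3 kept their direction in each of 10 alternatives. Since the groups did not overlap, leaving out a library, another pseudocount or voom on the same reads could not reverse a direction. The replicate block leaves each difference unchanged, and centring shifted each by far less than its size. The kept direction thus adds nothing to the values themselves. Trib3 stayed above Atf3 and Atf3 above Ddit3 in 10 of 10, but the replicate block and centring could not change this order. The differences of Atf3 and Ddit3, 2.13 (SE 0.051) and 2.06 (SE 0.033), lay close together. A pseudocount of 0.1 FPKM gave 4.60 for Trib3 and 2.26 for Atf3, voom on recovered reads gave 4.61 and 2.27, and both moved Ddit3 by less than its replicate SD. Both scales compress low levels less than log2(FPKM + 1). Centring gave 4.29 for Trib3, 1.93 for Ddit3 and 2.00 for Atf3, a shift common to all features by construction. Leaving out 1 library gave 4.36 to 4.49 for Trib3, 2.04 to 2.07 for Ddit3 and 2.10 to 2.17 for Atf3. With 3 libraries per group, such an omission cannot move a difference by more than 1 replicate SD. The number of features changed at the adjusted p in limma was 9011, and 8347 to 9308 over 12 alternatives. With the replicate block the differences were the same, 4.42, 2.06 and 2.13, with standard errors of 0.081, 0.038 and 0.050, and 8768 features changed. The labels do not pair libraries of the same number, whose deviations correlated with -0.03, 0.07 and 0.03, against -0.07 to 0.04 between different numbers, and not every library correlated best with its own number. The alternatives for the stress response lists were not run, because no list could be read. Depth limits the control levels of Trib3 and Atf3 most, at 131 to 183 and 182 to 261 reads per library.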
